A study of Mus musculus with 4 samples.

Results

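A total of 2759 CTCF peaks found in both the telencephalon and the medial ganglionic eminence (MGE) of the mouse embryo lay at the ends of genes. They were chosen by their position in the 2 CTCF peak lists: an MGE peak on chromosomes 1 to 19 had to overlap a telencephalon peak by 1 bp or more, and its midpoint had to lie within 1 kb of either end of an annotated gene. These peaks are 11.1% of the 24888 MGE peaks on chromosomes 1 to 19 (exact 95% Clopper-Pearson interval 10.7 to 11.5%) and 18.7% of the 14742 that were shared (18.1 to 19.4%). Sharing itself applied to 59.2% of the autosomal MGE peaks, and nothing is read from that share here because the rule used it. All 25710 MGE peaks and 31979 telencephalon peaks of the deposited lists were read.

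The 2 groups were dissected telencephalon and dissected MGE, the ventral region that produces many cortical interneurons, both at embryonic day 13.5. Each contributed 1 library made with a rabbit antibody against CTCF, and the labels name no strain, allele or treatment. The libraries were prepared with different New England Biolabs kits, so tissue and kit cannot be told apart, and MGE dissection is described for all samples without a word on whether the telencephalon sample contained the MGE. The header names of the lists end differently, in p001 for telencephalon and p01 for MGE, and the labels do not say what this stands for, so a difference in calling threshold between the lists cannot be told apart from tissue. In its header the telencephalon list is called e14, although its label gives the same age as the MGE. Peak calls do not report expression, so neither tissue could be checked against marker genes. Without replicates no test was made between tissues, and every interval below covers counting error alone.

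CTCF is a DNA-binding protein with a row of zinc fingers that reads a long, non-symmetric sequence. Cohesin, the ring complex that extrudes chromatin loops, stalls at bound CTCF, and the direction of the bound sequence sets the side on which it stalls. CTCF also occupies many promoters, where it can hold distant regulatory DNA near the start of a gene or separate neighbouring genes.

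The sequences bound at gene starts are shown first. RefSeq promoter windows (build GRCm38.p6, identical in coordinates to mm10) run from 250 bases before to 50 bases after a transcription start. They were searched on both strands for the 12-base CTCF core consensus. The following 6 windows held the consensus without a mismatch and lay under the widest shared peaks among such promoters. Each is written 5′ to 3′ on the strand of transcription, with the best match in capitals.
Lsm11: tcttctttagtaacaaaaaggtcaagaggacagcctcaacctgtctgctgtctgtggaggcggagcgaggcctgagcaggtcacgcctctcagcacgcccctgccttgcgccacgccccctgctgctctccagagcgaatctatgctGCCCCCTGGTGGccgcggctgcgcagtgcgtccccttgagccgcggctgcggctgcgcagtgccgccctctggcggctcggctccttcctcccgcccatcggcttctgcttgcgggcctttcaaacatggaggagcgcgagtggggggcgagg
Ext2: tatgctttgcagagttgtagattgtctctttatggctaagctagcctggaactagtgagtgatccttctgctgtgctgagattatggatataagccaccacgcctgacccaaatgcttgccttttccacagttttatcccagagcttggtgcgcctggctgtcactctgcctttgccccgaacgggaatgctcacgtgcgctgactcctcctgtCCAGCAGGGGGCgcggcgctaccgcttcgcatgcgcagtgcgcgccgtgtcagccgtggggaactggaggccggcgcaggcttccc
Aqr: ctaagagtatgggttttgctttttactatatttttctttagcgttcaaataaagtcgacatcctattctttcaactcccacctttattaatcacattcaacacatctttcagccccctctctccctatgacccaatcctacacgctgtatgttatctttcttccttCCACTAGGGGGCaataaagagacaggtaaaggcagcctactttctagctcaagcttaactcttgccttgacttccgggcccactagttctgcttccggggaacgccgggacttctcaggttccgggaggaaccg
Nudt17: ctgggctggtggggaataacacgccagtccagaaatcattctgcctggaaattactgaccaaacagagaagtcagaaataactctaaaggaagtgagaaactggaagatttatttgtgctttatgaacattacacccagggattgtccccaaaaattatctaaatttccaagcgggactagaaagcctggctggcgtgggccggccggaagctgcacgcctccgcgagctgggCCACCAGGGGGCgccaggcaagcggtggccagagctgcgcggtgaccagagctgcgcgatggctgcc
Gm32630: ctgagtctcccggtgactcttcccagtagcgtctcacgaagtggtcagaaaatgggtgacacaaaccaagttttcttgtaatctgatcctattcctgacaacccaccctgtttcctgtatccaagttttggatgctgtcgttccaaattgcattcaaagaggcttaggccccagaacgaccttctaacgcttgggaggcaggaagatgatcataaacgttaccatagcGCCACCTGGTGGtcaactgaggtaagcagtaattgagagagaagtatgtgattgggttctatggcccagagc
Gm2109: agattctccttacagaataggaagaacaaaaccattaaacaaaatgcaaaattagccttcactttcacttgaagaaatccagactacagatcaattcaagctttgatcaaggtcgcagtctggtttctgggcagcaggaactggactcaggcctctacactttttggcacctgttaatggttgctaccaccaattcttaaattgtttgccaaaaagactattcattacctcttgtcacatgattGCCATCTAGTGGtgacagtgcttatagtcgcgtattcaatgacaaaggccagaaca

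The Lsm11 window (chr11:45944886-45945185, minus strand) belongs to a component of the machinery that cuts histone messenger RNA. Its match lay on the strand opposite to transcription, centred 98 bases before the start, and the window held 3 matches in all. The MGE peak over it was 676 bp wide (chr11:45944575-45945250) and the telencephalon peak 564 bp (chr11:45944750-45945313). Ext2 encodes an enzyme that builds heparan sulfate chains. In its window (chr2:93822519-93822818, minus strand) the match lay on the strand of transcription 31 bases before the start, under peaks of 670 bp in MGE and 628 bp in telencephalon. Aqr encodes a helicase of the spliceosome, and its match (window chr2:114175290-114175589, minus strand) lay 79 bases before the start under peaks of 610 and 331 bp. The Nudt17 match (window chr3:96708511-96708810, minus strand) lay 12 bases before the start under peaks of 597 and 298 bp. The other 2 windows belong to the long noncoding RNA genes Gm32630 (chr7:16932100-16932399, minus strand) and Gm2109 (chr9:83691225-83691524, plus strand). Their matches lay on the strand opposite to transcription, 17 and 1 bases before the start. Across the 6 windows the match centre lay 58 to 128 bases from the MGE midpoint and 1 to 244 bases from the telencephalon midpoint.

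Shared peaks crowded just upstream of annotated gene starts and showed no such crowding at the other ends of genes. The gene table gives no strand, so direction was taken from the promoter table, which held the nearest gene of 1943 of the 2759 peaks (70.4%). Wherever a peak midpoint is placed, the start is the outer end of the gene in the gene table. It can differ from the transcription start of a promoter window, to which match positions refer. At Nudt17 the midpoint lay 262 bp inside the gene start, while the match lay 12 bases before the start of the promoter table. Among these, the nearest end was the start in 1314 (67.6%, interval 65.5 to 69.7%). It was the far end, the other annotated end of the gene, in 629 (32.4%, 30.3 to 34.5%). At starts, 743 midpoints lay within 250 bp (56.5%, 53.8 to 59.2%). At far ends 158 did (25.1%, 21.8 to 28.7%). The 100 bp before the start held 301 midpoints and the 100 bp before those held 179, against 134 in the 100 bp after the start and 23 to 48 in each 100 bp more than 300 bp away. No 100 bp step around far ends held fewer than 19 or more than 43 midpoints.

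**Figure D1:**
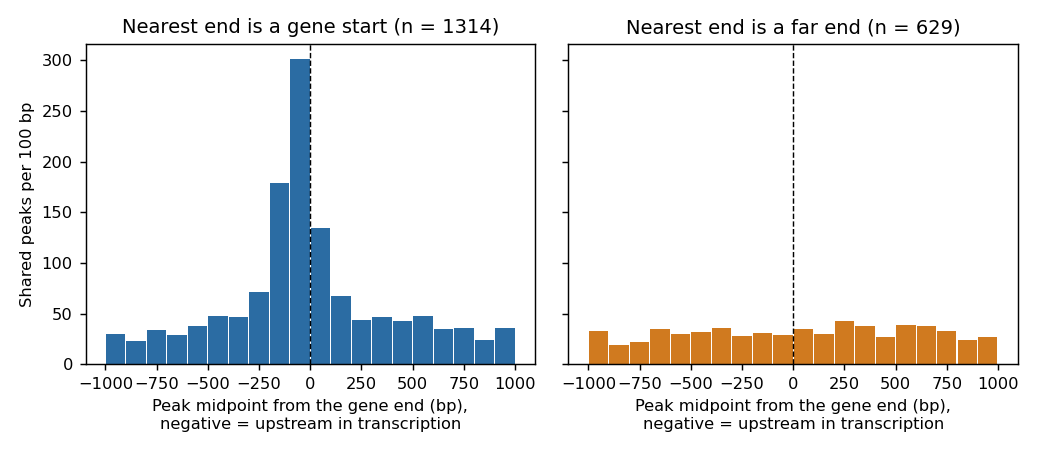
Number of shared gene-end peaks per 100 bp by distance of the MGE midpoint from the nearest gene end, for starts (left, 1314 peaks) and far ends (right, 629 peaks), with upstream in the direction of transcription to the left. The tallest bar holds 301 peaks, in the 100 bp before the start, and bars at far ends stay between 19 and 43.

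Peaks of a single list at gene ends were set beside these, with the same measures. Of telencephalon peaks at gene ends without an MGE partner (2657 peaks), 70.4% of those with a known strand lay nearest to a start (68.3 to 72.5%), and 24.5% of these had their midpoint in the 200 bp upstream (22.2 to 27.0%). For shared peaks the latter share was 36.5% (33.9 to 39.2%). Of the 577 MGE peaks at gene ends without a telencephalon partner, 51.8% lay nearest to a start (46.3 to 57.2%), and 15.9% of these in the 200 bp upstream (10.8 to 22.2%). At far ends the same 200 bp held 9.54%, 9.06% and 11.6% of shared, telencephalon and MGE peaks, with overlapping intervals. Midpoints of wide peaks are less exact than summits, which the lists do not give.

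The distance to the nearest end, with strand set aside, was 100 bp or less for 670 of the 2759 shared peaks (24.3%), 250 bp or less for 1230 (44.6%) and 500 bp or less for 1827 (66.2%). The last 100 bp that the rule admits held 175 (6.34%). Just inside the limit were peaks 1000 bp from Pfpl (MGE chr19:12432947-12433273), 1000 bp from Spry1, an inhibitor of growth factor signalling (chr3:37640762-37641132), and 998 bp from Tmem95 (chr11:69876840-69877264). Just outside it were shared peaks 1001 bp from Gm32563, 1001 bp from Odf3l1 and 1003 bp from Dtx3l. The overlaps that carried the sharing were smallest at Kif1b, a kinesin motor gene (12 bp), Vangl2, a planar cell polarity gene (14 bp), and Hbq1b (24 bp). Midpoints lay outside the nearest gene in 1629 cases (59.0%) and inside it in 1130 (41.0%).

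The CTCF consensus was common in promoters under shared gene-end peaks. A shared peak overlapped 1006 of the 31396 autosomal promoter windows. With at most 1 mismatch, 372 of these 1006 windows held the consensus (37.0%, interval 34.0 to 40%), against 4.41% of all promoter windows. Windows under telencephalon peaks without an MGE partner held it in 143 of 938 cases (15.2%, 13 to 17.7%), and windows under MGE peaks without a telencephalon partner in 13 of 104 (12.5%, 6.83 to 20.4%). Windows under no peak held it in 806 of 29217 cases (2.76%, 2.57 to 2.95%). Another 131 windows lay under shared peaks that the gene-end rule left out, and 37.4% of them held it (29.1 to 46.3%). The interval of the shared gene-end peaks did not overlap those of single-list peaks, whereas it lay within that of the other shared peaks. Nearby and alternative starts give overlapping windows, so these intervals are too narrow.

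**Figure D2:**
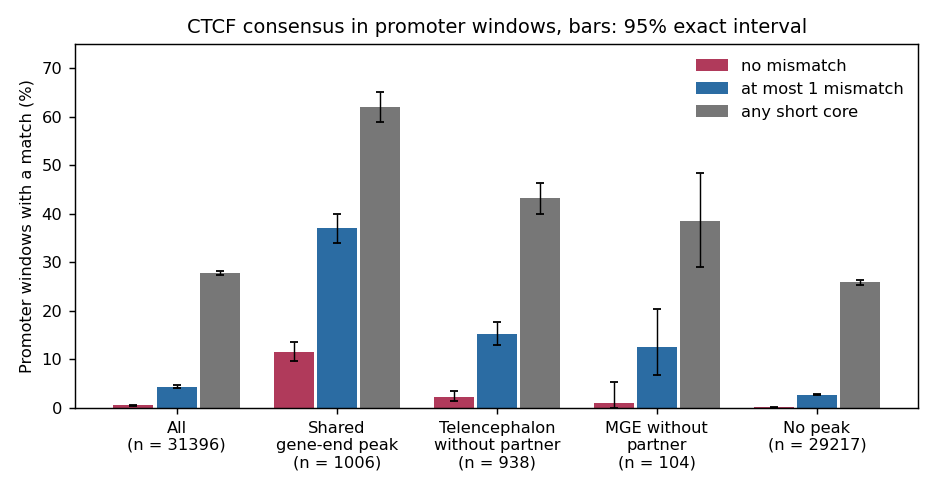
Share of promoter windows that hold the CTCF core consensus without a mismatch, with at most 1 mismatch, or any of its short cores, by the kind of peak over the window, with exact 95% intervals. With at most 1 mismatch, windows under shared gene-end peaks stand at 37.0%, those under telencephalon peaks without a partner at 15.2% and those under no peak at 2.76%. Windows under other shared peaks are not drawn.

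Stricter and looser forms of the search also gave a higher share under shared gene-end peaks than under peaks of a single list and under no peak. Without a mismatch, 116 windows under shared gene-end peaks held the consensus (11.5%, interval 9.62 to 13.7%), against 0.573% of all windows, 2.24% under telencephalon peaks without a partner (1.39 to 3.4%) and 0.0924% under no peak (0.0609 to 0.134%). The search for the 7-base cores of the consensus used both strands and allowed no mismatch. A first core reads AGGGGGC and the next core, equal in length, reads AGGTGGC. The remaining cores read AGATGGC and, as the last form searched, AGAGGGC. At least 1 core occurred in 62.0% of windows under shared gene-end peaks and in 27.8% of all windows. Windows under the other shared peaks were like those under shared gene-end peaks. Of them 11.5% held the consensus without a mismatch (6.55 to 18.2%) and 64.1% held a core (55.3 to 72.3%). Seen from the sequence, 180 promoter windows held the consensus without a mismatch, and a shared gene-end peak lay over 116 of them (64.4%, 57.0 to 71.4%). A telencephalon peak without a partner lay over 21, an MGE peak without a partner over 1, another shared peak over 15, and no peak over 27. Of the 1203 windows whose best match had 1 mismatch, 256 lay under a shared gene-end peak (21.3%, 19 to 23.7%), and of the 30013 without a match 634 did (2.11%, 1.95 to 2.28%). No match says only that these letters are absent from the window.

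Base composition and peak width differed between these windows, and the shares were therefore also read within classes of each. Windows under shared gene-end peaks had a median GC content of 62.0% and a median CpG ratio (observed over expected from the bases) of 0.76. All windows had 53.0% and 0.39, and windows under telencephalon peaks without a partner 60.7% and 0.75. With windows divided by GC content at 48.3% and 58.7%, the lowest class under shared gene-end peaks was small (92 windows). In it 39.1% of windows held the consensus with at most 1 mismatch (29.1 to 49.9%), in the middle class 47.3% (41.4 to 53.3%) and in the highest class 32.0% (28.4 to 35.8%). Under telencephalon peaks without a partner these shares were 17.1%, 14.6% and 15.3%, and under no peak 2.03%, 2.75% and 3.57%. By width of the telencephalon peak, windows under shared peaks held it in 21.5% of cases under 250 bp (14.1 to 30.5%), 33.2% from 250 bp to under 350 bp (27.8 to 39.0%) and 41.4% at 350 bp and above (37.5 to 45.5%). Those under telencephalon peaks without a partner held it in 15.5% (12.4 to 18.9%), 13.2% (9.34 to 17.8%) and 17.8% (12.4 to 24.3%). The intervals of the narrowest class overlapped and those of the wider classes did not. By MGE width, the share under shared gene-end peaks was 31.3% at 244 to 319 bp (25.7 to 37.5%) and 38.1% at 320 to 376 bp (32.1 to 44.4%). It was 39.6% at 377 to 443 bp (33.5 to 46.0%) and 38.9% from 444 bp (32.8 to 45.2%), and these intervals overlapped. Without a mismatch the shares in these MGE classes were 10.7%, 11.5%, 16.0% and 7.94%. These classes were added after the data were seen.

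The matches lay close to the peak midpoints in both lists. Windows that share a match were counted once, which left 338 different match positions. The match centre fell inside both peaks in 333 of them (98.5%, interval 96.6 to 99.5%). Its median distance from the MGE midpoint was 31.2 bp (interquartile range 13.5 to 63.2 bp) and from the telencephalon midpoint 41.0 bp (14.5 to 84.4 bp). It lay within 50 bp of the midpoint in 67.8% of cases in MGE and 57.1% in telencephalon. Only windows under a shared gene-end peak were counted, which by itself brings matches near the peaks. No expected distance was computed, so these values are given as a description. The members over a promoter with a match had a median width of 385.5 bp in MGE and 409 bp in telencephalon, and those over promoters without one 370 and 371 bp.

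Matches under shared gene-end peaks pointed with transcription more often than against it. Of 322 match positions that belong to the promoter of a single gene, 215 lay on the strand of transcription (66.8%, interval 61.3 to 71.9%). In promoters under no peak 370 of 748 did (49.5%, 45.8 to 53.1%), and under telencephalon peaks without a partner 86 of 125 (68.8%, 59.9 to 76.8%). Under the other shared peaks 26 of 47 did (55.3%, 40.1 to 69.8%). The intervals of these other 2 kinds of peak overlapped that of the shared gene-end peaks. Between 50 and 100 bp before the start, 97 matches lay on the strand of transcription and 20 on the other (82.9%, 74.8 to 89.2%). That stretch was picked after the positions were seen. Under telencephalon peaks without a partner it held 23 and 6 (79.3%, 60.3 to 92.0%), which overlaps the interval of the shared peaks, and in promoters under no peak 100 and 90. Match centres lay upstream of the start in 309 of 322 cases (96.0%), in a window that is itself mostly upstream, and in its 100 bases nearest the start in 186 (57.8%, 52.2 to 63.2%). Matches on the other strand were spread more evenly, with 2 to 17 in each step of 25 bp.

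**Figure D3:**
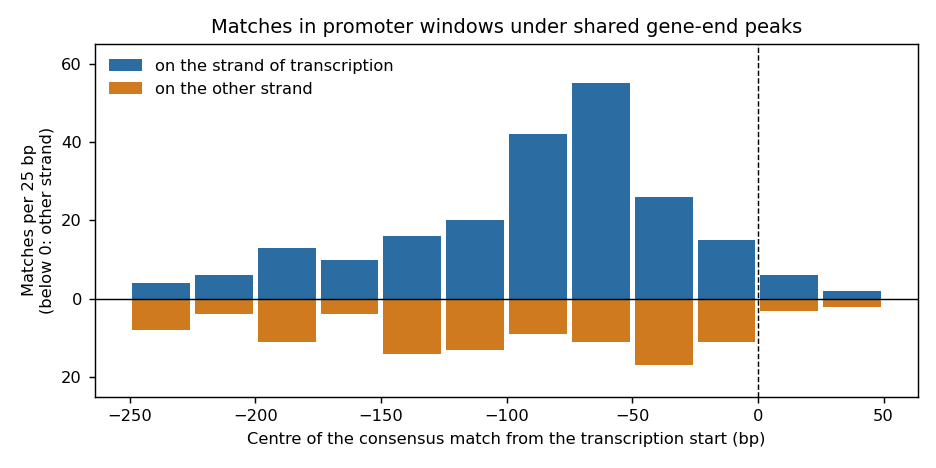
Position of the consensus match (at most 1 mismatch) relative to the transcription start in promoters under shared gene-end peaks, per 25 bp, for 322 matches that belong to 1 gene. Bars above 0 count matches on the strand of transcription (215) and bars below 0 those on the other strand (107). The tallest bar, 55 matches, covers 50 to 75 bp before the start.

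Matches at genes of the lists described below are shown as examples. In 20 of the 22 lists, those other than zinc finger and solute carrier genes, 38 genes had a promoter window under a shared gene-end peak, and 17 of them held a match, beside 372 of the 1006 windows under all shared gene-end peaks (37.0%). Nothing particular to the list genes is read from this. These were printed after their values were seen. Each line is read 5′ to 3′ on the strand of the match, with up to 10 bases on either side and the match in capitals.
H13: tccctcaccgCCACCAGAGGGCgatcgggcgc
Psmc4: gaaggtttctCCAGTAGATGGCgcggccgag
Rplp0: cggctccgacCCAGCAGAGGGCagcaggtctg
Ackr3: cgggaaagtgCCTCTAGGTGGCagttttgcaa
Drd1: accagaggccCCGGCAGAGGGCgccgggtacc
Hoxa5: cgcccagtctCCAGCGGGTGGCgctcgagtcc
Mrpl17: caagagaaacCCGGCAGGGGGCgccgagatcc
Mrpl34: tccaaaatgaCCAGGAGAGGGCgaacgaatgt
Pds5b: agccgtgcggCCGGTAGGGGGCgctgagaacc
Peg12: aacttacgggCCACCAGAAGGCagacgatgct
Psmd6: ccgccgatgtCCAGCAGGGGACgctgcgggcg
Rpl37: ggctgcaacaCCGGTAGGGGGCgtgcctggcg
Rpl38: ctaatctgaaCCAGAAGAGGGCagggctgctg
Rpl5: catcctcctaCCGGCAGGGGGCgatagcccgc
Sf3a3: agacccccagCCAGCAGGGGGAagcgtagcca
Sf3b2: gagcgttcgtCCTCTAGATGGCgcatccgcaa
Snrpe: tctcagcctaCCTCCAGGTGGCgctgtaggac

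H13, Psmc4 and Rplp0 had no mismatch. H13 encodes a signal peptide peptidase and is imprinted. Its match lay 66 bases before the start (chr2:152669380-152669411), 31 bp from the MGE midpoint and 23 bp from the telencephalon midpoint. Rplp0, a stalk protein of the large ribosomal subunit, had its match 172 bases before the start (chr5:115559280-115559311) under peaks of 413 bp in MGE and 534 bp in telencephalon. Psmc4 encodes an ATPase of the proteasome, and its match (chr7:28050312-28050342) lay under peaks of 271 and 320 bp. The match of Drd1, the D1 dopamine receptor gene of striatal neurons, lay 88 bases before the start (chr13:54055730-54055761) and 14 bp from both midpoints. That of Ackr3, a chemokine scavenging receptor of migrating interneurons, lay 32 bases before the start (chr1:90203933-90203964), 5 bp from the MGE midpoint and 18 bp from the telencephalon midpoint. Pds5b, a cohesin regulator, had its match 129 bases before the start (chr5:150673683-150673714), 42 and 1 bp from the midpoints. At Psmd6 (chr14:14121009-14121040) and Rpl5 (chr5:107900455-107900486) the match lay on the strand of transcription 80 and 58 bases before the start. Positions given for these genes are those of the printed stretch on GRCm38.p6, and the match lay on the minus strand at Ackr3, Drd1 and Psmd6 and on the plus strand at H13, Rplp0, Psmc4, Pds5b and Rpl5.

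Shared gene-end peaks were somewhat wider than other shared peaks in both lists. Their median width was 364 bp in MGE (95% interval of the median 359 to 368 bp, interquartile range 301 to 430 bp) and 370 bp in telencephalon (363 to 379 bp, interquartile range 294 to 495 bp). Shared peaks inside genes had medians of 343 bp (340 to 345 bp) and 346 bp (342 to 350 bp), and those between genes 341.5 bp (339 to 345 bp) and 343 bp (339 to 347 bp). Gene-end peaks without a partner were narrower, at 233 bp in telencephalon (229 to 237 bp) and 244 bp in MGE, which is the narrowest width in that list. A wider peak meets the overlap rule more easily, so nothing is read from this difference. Among shared gene-end peaks 188 had this narrowest width (6.81%), against 9.85% inside genes and 9.86% between genes. The telencephalon peak was the wider of the pair in 51.9% of cases and the MGE peak in 47.8%. The narrowest telencephalon peak among them measured 150 bp, so the lists differ in their narrowest widths. Widths are therefore not on a like footing between the lists. Widths in the lists went together weakly (Spearman's rho 0.27 across 2759 peaks, given as a description). Midpoints in the lists were a median of 49.5 bp apart, and the overlap covered a median of 85.6% of the MGE peak.

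**Figure D4:**
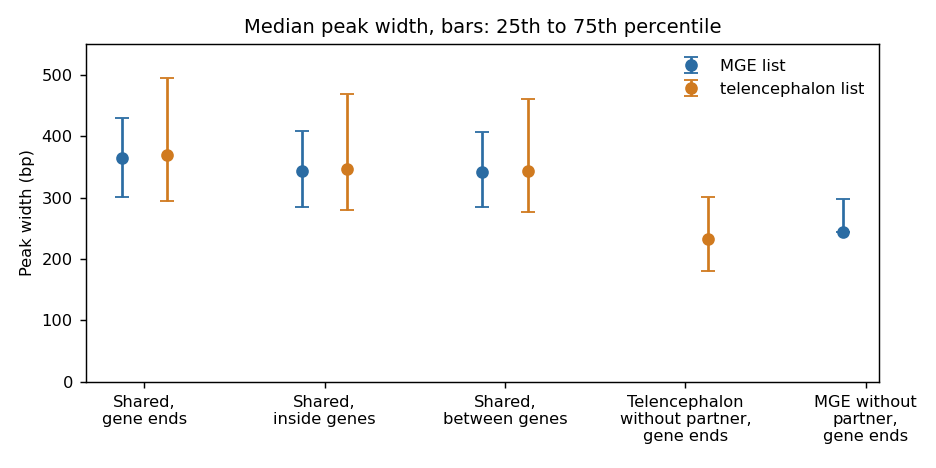
Median peak width in the MGE and telencephalon lists, with bars from the 25th to the 75th percentile, for shared peaks by location and for gene-end peaks of a single list. Shared gene-end peaks stand at 364 bp in MGE and 370 bp in telencephalon, and gene-end peaks without a partner at 244 and 233 bp.

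The widest members, by the sum of both widths, lay at genes of many kinds. At Pts, which acts in the synthesis of the enzyme cofactor tetrahydrobiopterin, the peak was 1126 bp in MGE and 1012 bp in telencephalon, with the MGE midpoint 18 bp from the start of the gene. At Wif1, a secreted Wnt inhibitor, the widths were 1003 and 1084 bp (MGE chr10:121033134-121034136), with the midpoint 369 bp before the start. The peak at the far end of Mmp28, a matrix metalloproteinase gene, measured 846 and 1084 bp (chr11:83440391-83441236). Those at the far ends of Synj2, a phosphoinositide phosphatase gene, and Matn4, an extracellular matrix gene, measured 995 and 817 bp (chr17:6054738-6055732) and 734 and 1076 bp (chr2:164389380-164390113). At Mus81, a DNA repair endonuclease, the peak measured 769 and 912 bp and its midpoint lay 119 bp inside the start. The others of the 12 widest lay at Gm33940, Sh2d6, Lrfn2, Tbc1d9b, 4930465K10Rik and Arl2. Among these 12 the widths were farthest apart at Sh2d6, where the MGE peak was 430 bp and the telencephalon peak 1410 bp. At the widest members over promoters without a match, Tbc1d9b, Gm52872 and Tmem242, the MGE peaks measured 1065, 945 and 930 bp. At the narrowest members with a match, 1700013F07Rik, Fgd6 and Fxr2, each MGE peak measured 244 bp and the telencephalon peaks 417, 444 and 462 bp.

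Ends of 2 or more genes lay within 1 kb of 442 shared peaks (16.0%, interval 14.7 to 17.4%). Where 2 genes with 1 end each and known strands were involved (251 peaks), 146 peaks had the starts of both genes within 1 kb (58.2%, 51.8 to 64.3%). A start and a far end met at 66 (26.3%, 21.0 to 32.2%) and far ends of both genes at 39 (15.5%, 11.3 to 20.6%). How often gene ends lie this close, and in which pairing, was not counted over the whole gene table or under peaks of a single list. No preference for a pairing is therefore read from these shares. Peaks at paired starts had a median width of 375.5 bp in MGE and 374.5 bp in telencephalon, and those at paired far ends 340 and 365 bp. Ends of 4 genes came together at 3 peaks. These lay at Cdk9, a kinase that releases paused RNA polymerase, with Gm33457, Mir3960 and Mir2861 (chr2:32713163-32713899), at Tnfsf13 and Senp3 with Tnfsfm13 and Tnfsf13os (chr11:69682673-69683161), and at Zbtb32 and Kmt2b, a histone methyltransferase gene, with Mir3569 and Gm32082 (chr7:30589424-30589675). Bysl and Med20, a Mediator subunit, shared a peak with Gm20517 (chr17:47611153-47611760, 608 bp in MGE and 409 bp in telencephalon). Gdf1, Cers1 and Upf1 shared another, and so did the tRNA genes n-TEctc10 and n-TLcaa3 with Gm39827.

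Separate shared peaks at both ends were found at 55 of the 2043 protein-coding genes that had any (2.69%, 2.03 to 3.49%). Cd63, a tetraspanin gene, was flanked by peaks of 470 and 671 bp in MGE and 520 and 549 bp in telencephalon. Usb1, which trims U6 RNA, had peaks of 547 and 647 bp in MGE, the former also at the start of Zfp319. Mmp17 had peaks of 622 and 506 bp. The noncoding gene Gm33940 also had a peak at each end. At Gm31903, a short noncoding gene (chr17:88653029-88654062), both midpoints lay nearest to the same end, 941 bp outside and 103 bp inside it. The inner midpoint also lay within 1 kb of the other end.

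Shared gene-end peaks were found at 2043 of 20665 autosomal protein-coding genes, or 9.89% (9.48 to 10.3%), which is the level against which the gene lists are read. The lists were chosen with earlier results of these data known. Among genes for cohesin subunits, CTCF and their chromatin partners, a shared gene-end peak was found in 6 of 22 cases (27.3%, interval 10.7 to 50.2%). Ctcf had one inside its start (chr8:105636496-105637086, 591 bp in MGE and 326 bp in telencephalon), and Smc3, a core cohesin subunit, had one 445 bp before its start (chr19:53599761-53600141, 381 and 312 bp). Esco1, a cohesin acetyltransferase, and Bptf, a chromatin remodelling subunit, had peaks of 561 and 519 bp in MGE and 617 and 513 bp in telencephalon. Pds5b and Chd8, a chromatin remodeller, were the remaining members. Cytoplasmic ribosomal protein genes had one in 19 of 75 cases (25.3%, 16.0 to 36.7%), from 23 peaks. Among these were the peaks of Rps29 (648 bp in MGE and 530 bp in telencephalon), Rpl26 (638 and 659 bp) and Rpl38 (544 and 809 bp). The intervals of these 2 lists lay above 9.89%. Intervals of the gene lists are not adjusted for the number of lists, and no list was tested.

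Other genes of basic cell machinery had shares whose intervals included 9.89%. Mitochondrial ribosomal protein genes had a shared gene-end peak in 12 of 78 cases (15.4%, 8.21 to 25.3%), with Mrpl38 (521 bp in MGE, 483 bp in telencephalon) and Mrps14 (508 and 189 bp) the widest. Core spliceosome genes had 7 of 38 (18.4%, 7.74 to 34.3%), among them Snrpd1 (425 and 291 bp), Srsf1 (385 and 244 bp) and U2af2 (352 and 222 bp). Proteasome genes had 6 of 33 (18.2%, 6.98 to 35.5%), led by Adrm1 (419 and 319 bp) and Psmd1 (411 and 496 bp). Aminoacyl-tRNA synthetase genes had 4 of 37 (Rars, Aars, Mars1 and Sars2) and DNA repair genes 4 of 40 (Nbn, Ercc4, Msh3 and Xrcc1). The peak at Sars2 also lay at the neighbouring gene Mrps12. Of 40 cell cycle and replication genes only Mcm5, a subunit of the replicative helicase, had one (2.5%, 0.0633 to 13.2%), with 507 bp in MGE and 460 bp in telencephalon.

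Intervals of the forebrain lists also included 9.89%. In the MGE and interneuron list 5 of 34 genes had a shared gene-end peak (14.7%, 4.95 to 31.1%). Satb1, a chromatin organiser of maturing interneurons, had one of 572 bp in MGE and 185 bp in telencephalon (MGE chr17:51832574-51833145). Cux2 had one of 401 and 402 bp, and Gli1, an effector of the hedgehog pathway, one of 501 and 532 bp. The MGE midpoints lay 40 bp from the start of Cux2 and 899 bp from an end of Gli1, whose strand was not given. Sox6, which acts in MGE-derived interneurons, had one of 309 and 345 bp inside its start (chr7:116040245-116040553). Gad1, which makes the transmitter GABA, had one of 262 and 315 bp (chr2:70561126-70561387) with its midpoint 47 bp from the start. Genes of the lateral and caudal eminences had 3 of 24 (Calb2, Ebf1 and Drd1), and dorsal genes 2 of 30 (Cux1 and Lhx5). Progenitor and Notch genes had 5 of 25 (20%, 6.83 to 40.7%). Jag1, a Notch ligand, had peaks of 571 and 419 bp, and Nes, the intermediate filament gene nestin, of 305 and 338 bp. The others were Slc1a3, Msi1 and Hes1, a Notch effector. Midpoints lay 970 and 840 bp from the starts of Jag1 and Nes and 558 bp from the far end of Slc1a3. At Msi1, whose strand was not given, the midpoint lay 65 bp from an end. Shares of the gene lists were taken at the 1 kb window alone. Migration and guidance genes had 3 of 35 (Plxna1, Ephb1 and Ackr3).

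Gene families gave a wider spread. Hox genes had a shared gene-end peak in 8 of 39 cases (20.5%, 9.3 to 36.5%), from 7 peaks since neighbours can share one. Those of Hoxa10 measured 360 bp in MGE and 622 bp in telencephalon, and those of Hoxd11 and Hoxb8 360 and 249 bp and 357 and 295 bp. Solute carrier genes had 45 of 362 (12.4%, 9.21 to 16.3%), with Slc4a8 (718 and 393 bp) and Slc27a4 (681 and 675 bp) the widest, and potassium channel genes 8 of 92 (Kcnj11 and Kcnj6 the widest). Zinc finger genes had 23 of 388 (5.93%, 3.79 to 8.76%), among them Zfp319, Zfp385a, Zfp2 and Zfp398. Of 1104 olfactory receptor genes only Olfr1358 had one (0.0906%, 0.00229 to 0.504%), of 244 bp in MGE and 234 bp in telencephalon. The intervals of these last 2 lists lay below 9.89%. Members of families that lie side by side are not independent, so their intervals are too narrow. Imprinted genes had 4 of 44 (H13, Kcnk9, Peg12 and Peg13). Markers of other cells that the dissections could hold gave 1 of 16 for blood (Spi1) and 1 of 18 for vessels and meninges (Col1a1). Histone genes could not be counted, since no symbol in the gene table matched their pattern.

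**Figure D5:**
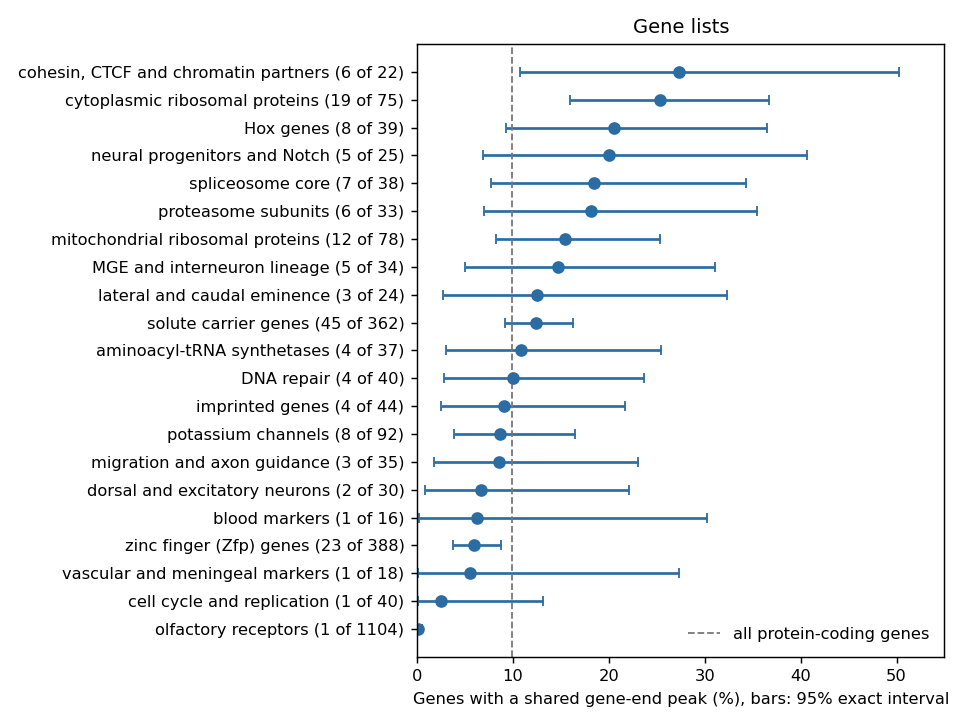
Share of the genes of each list with a shared gene-end peak, with exact 95% intervals, and the level of all protein-coding genes (9.89%) as a dashed line. Cohesin and CTCF partners and cytoplasmic ribosomal proteins lie above the line with their intervals, and zinc finger genes and olfactory receptors below it.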

How the data were processed

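CTCF ChIP-seq of 2 tissues was used, with 1 CTCF library each. The input libraries were not analysed here. Bowtie2 2.3.2, MACS2 2.1.1.20160309 and mm10 are named in the submitters' processing notes. The control and filters of the peak calling, and its threshold beyond the header names p001 (telencephalon) and p01 (MGE), were not given in the sources used here. The authors deposited a start and an end per peak, per the file headers and columns, with no score, summit or depth, so read depth is unknown and weak peaks can be missing from either list, and peaks of a single list can be weak peaks that the other list lost. Overlaps, distances and consensus matches were computed in Python 3.11.15 with scipy 1.17.1, and the code was tested on simulated data. Gene positions and promoter windows came from RefSeq tables on GRCm38.p6. A midpoint is that of the MGE peak, or of the telencephalon peak where it has no partner. The partner is the telencephalon peak with the largest overlap. The 22 gene lists were matched by symbol or unique synonym.

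The peaks, the lists and the rules for naming were chosen with earlier results of these data known. Named were the 12 widest members, those nearest to the limits, those at most genes or at both ends, up to 4 genes per list by MGE width, and promoters with a match ordered by mismatches and width. Gad1, Hes1, Chd8 and the promoters printed by match alone were named after their values were seen. Shares have exact 95% Clopper-Pearson intervals. No p-value was computed. Some items are not reported here. The alternatives were other windows, gene classes, overlaps and width limits, and the other list as the anchor.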

Additional observations from a re-analysis of the deposited data

How the results depend on the processing

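No paired analysis was possible because each tissue had 1 CTCF library, and for the same reason none could be left out. The share of promoters with the consensus changed to 40.4% for the wider 50% of each list, 44.7% where at least 150 promoter bases lay under the peak (19.2% for telencephalon peaks without a partner), 11.5% without a mismatch and 62.0% for any 7-base core. With ends of 500 bp, 2 kb and 5 kb the shared gene-end peaks numbered 1827, 4207 and 6881, or 12.4%, 28.5% and 46.7% of shared peaks. The share within 250 bp of an end became 67.3%, 29.2% and 17.9%, the share near ends of 2 or more genes 11.4%, 22.2% and 36.3%, and the share of protein-coding genes 6.69%, 15.0% and 25.2%, which follows from the size of the window. The median MGE width was 354 bp at 5 kb. With protein-coding genes alone, 13% of shared peaks lay at ends, 46.7% of them within 250 bp and 11.4% near 2 or more genes, and the median telencephalon width was 380.5 bp. The wider 50% of each list gave 1743 peaks, 20.8% of shared peaks, medians of 398 and 424 bp, 46.5% within 250 bp and 6.46% of genes. Reciprocal overlap of 50% gave 8.76% of genes. Without MGE peaks of the narrowest width, the median MGE width was 371 bp and 9.26% of genes had a peak. With the telencephalon list as anchor, or both midpoints at 1 end, none of these shares and widths moved beyond its interval and the count stayed within 1.5 times. X and Y were added for the count alone, which was then 2788.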

Other observations

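The shared gene-end peaks were spread over all 19 autosomes. They made up between 15.1% (chromosome 16) and 22.4% (chromosome 19) of the shared peaks of a chromosome. Protein-coding genes had one in between 6.51% (chromosome 13) and 14% (chromosome 8) of cases. The nearest other shared gene-end peak was a median of 107987 bp away (interquartile range 30532 to 347955 bp), and the nearest shared peak of any kind 21433 bp. Another shared gene-end peak lay within 10 kb of 333 peaks (12.1%) and within 2 kb of 141 (5.11%).

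The gene nearest to a shared peak was protein-coding in 1826 cases (66.2%, 64.4 to 67.9%), a long noncoding RNA gene in 701 (25.4%, 23.8 to 27.1%) and a pseudogene in 104 (3.77%). It was a microRNA gene in 34 cases, a small nucleolar RNA gene in 20 and a tRNA gene in 19. Among genes of all classes together, 3093 of 47042 had a shared gene-end peak (6.57%), beside 9.89% of the 20665 protein-coding genes. The number of genes in each other class was not counted, so no preference for those classes is read from these counts. The median MGE width was 369 bp at protein-coding genes, 355 bp at long noncoding RNA genes and 384 bp at tRNA genes, and the telencephalon medians were 380.5, 352 and 386 bp.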
